A study of Homo sapiens with 61 samples.

Results

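The comparison described here asks which parts of the RNA response of human neurons to vincristine differ once the kinases DLK (gene MAP3K12) and LZK (gene MAP3K13) are both knocked out. For every gene, the vincristine effect in the double knockout (vincristine minus untreated) was compared with the vincristine effect in wild type (WT), and the quantity tested is the effect in the double KO minus the effect in WT, on the log2 scale. It uses 16 of the 61 libraries of the series, 4 in each of 4 groups, and 18235 of the 58440 genes in the count table passed the filter on low counts and were tested. All 4 groups are neurons of the established human iPSC line WTC11 (induced pluripotent stem cells), made through a doxycycline-driven NGN2 cassette that WT and double KO lines both carry. The labels call the neurons "cortical". The groups are WT untreated, WT vincristine, DLK LZK double KO untreated and DLK LZK double KO vincristine. Per the labels, untreated cells received the DMSO vehicle and treated cells 5 nM vincristine from day 14 for 16 hours. The labels do not say whether a line is 1 clone, or whether the 4 libraries of a group come from separate differentiations. The p-values therefore measure only the spread between these libraries, which may be technical.

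DLK and LZK are mixed-lineage kinases at the top of a stress pathway in neurons. When axons are injured or microtubules are disturbed, they activate the MAP2 kinases MKK4 and MKK7, which activate the JNK kinases, and JNK phosphorylates transcription factors such as JUN and ATF2. In neurons the pathway is known both for injury-induced cell death and for axon regeneration. Vincristine binds tubulin and keeps microtubules from assembling. Tubulin messages are also controlled by a separate mechanism, in which a rise in free tubulin leads to decay of the messages that encode it.

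Total counts ran from 9.2 to 14.6 M per library (M, mega), with a median of 11 M, and 6.11% to 10.3% of them fell on mitochondrial genes. All 10 pan-neuronal markers were tested, and their summed level was 9150 to 9930 CPM (counts per mega counts of the library) in WT libraries and 11200 to 11900 CPM in double KO libraries, without overlap. Of the glutamatergic markers, 9 of 10 were tested, with a sum of 613 to 637 CPM in untreated WT, 692 to 723 in WT with vincristine and 574 to 592 in the double KO. A list of sensory and peripheral neuron markers, led by the transcription factor POU4F1, summed to 431 to 463 CPM in untreated WT libraries, 116 to 220 with vincristine, and 370 to 403 over both double KO groups. POU4F1 made up nearly all of the sum in WT but not in the double KO. Of the 6 sensory and peripheral markers tested, 3 were called higher and 2 lower in untreated double KO than in untreated WT (median 0.469, log2). Progenitor markers, led by the filament gene NES, summed to 735 to 776 CPM in untreated WT, 923 to 1950 with vincristine and 137 to 144 in the double KO. NES made up most of each sum. Of the 8 progenitor markers tested, 4 were called higher and 2 lower in untreated double KO than in untreated WT (median 0.871, log2). Markers of pluripotent cells were higher in untreated double KO (86 to 95.2 CPM) than in untreated WT (17.8 to 19 CPM), and so were inhibitory neuron markers (26.6 to 29.3 against 1.79 to 2.8 CPM). None of the 7 microglia markers passed the filter. The part of these marker differences in the results was not tested. In bulk RNA, fewer cells of a type and less RNA per cell cannot be told apart.

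The targeted transcripts were lower in the double KO. MAP3K12 (chromosome 12, 53479669 to 53500063, GRCh38) was at 89.8, 94.3, 90.2 and 89.7 CPM in the untreated WT libraries and at 21.8, 17.7, 17.4 and 21.7 CPM in the untreated double KO libraries. MAP3K13 (chromosome 3, 185282941 to 185489097) was at 98.9, 101, 99.1 and 96.8 CPM in untreated WT and at 29.8, 31, 30.9 and 26.7 CPM in untreated double KO. The groups did not overlap for either gene. The untreated difference was -2.21 (log2, adjusted p = 5.55e-19) for MAP3K12 and -1.74 (adjusted p = 2.6e-23) for MAP3K13. Counts per gene do not show which part was deleted, so the remaining reads say nothing about protein.

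A gene was called at an adjusted p under 0.05 (edgeR quasi-likelihood test, Benjamini-Hochberg over the 18235 genes). In WT, vincristine changed 5498 genes (30.2%), of which 2855 rose (15.7%) and 2643 fell (14.5%). In the double KO it changed 12 genes (0.0658%), 1 upward (0.00548%) and 11 downward (0.0603%), and 1096 genes had an unadjusted p under 0.05. With limma voom 42 genes were called in the double KO. When each line was fitted on only its own 8 libraries, an alternative chosen after seeing the data, 1028 genes were called in the double KO and 3529 for the vincristine effect in WT. The difference between the lines was called for 3543 genes (19.4%). It was lower in the double KO for 1864 (10.2%) and higher for 1679 (9.21%). Of these 3543, 3294 were also called in WT, and for 3293 (18.1% of all genes tested) the difference ran opposite to the WT effect. The remaining gene, TUBB2B, fell further in the double KO than in WT.

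To separate a response that was lost from one that was only smaller, the double KO effect was also tested against 0.5 times the WT effect. A gene is called lost here when it was called in WT, the difference was called in the opposite direction, and the double KO effect was also called below 0.5 times the WT effect. It is called retained when the double KO effect was called above 0.5 times the WT effect. Over all genes tested, 1256 were lost (6.89%) and 8 were retained (0.0439%). Among the 982 genes that changed at least 2-fold in WT (676 upward, 306 downward), 699 (71.2%) were called for a difference opposite to the WT effect, 410 (41.8%) were lost and 7 were retained. The other 565 could not be placed on either side of 0.5 times the WT effect. Summed over the 982 genes, the double KO kept 3.16% of the WT effect (4.57% for genes that rose and -0.374% for genes that fell). Summed over all 5498 genes called in WT it kept -0.0498% ± 2.6 (SD over the 4 double KO vincristine libraries).

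**Figure D1:**
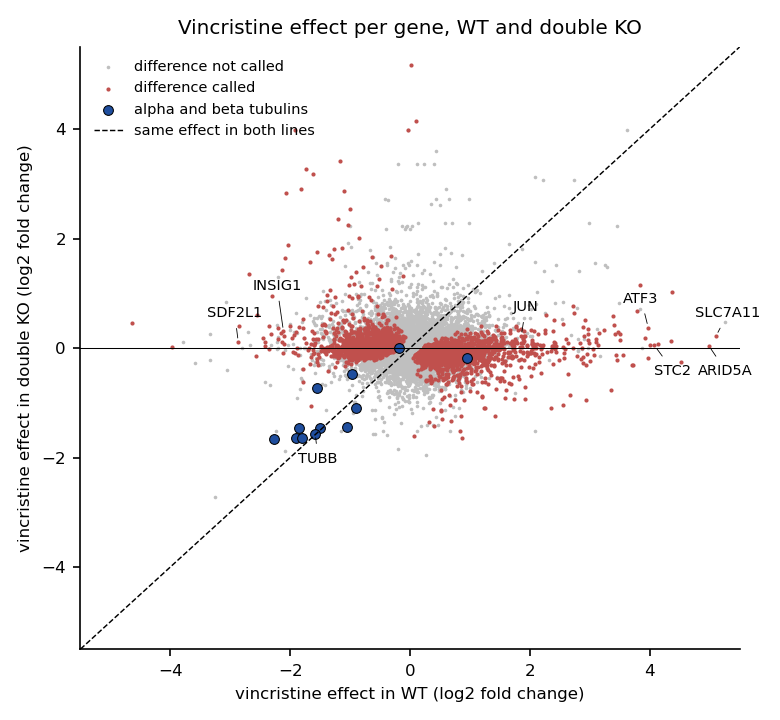
Vincristine effect in WT (x axis) and in the double KO (y axis), log2 fold change, 1 point for each of the 18235 genes. Red points are the 3543 genes called for the difference, and most lie along the horizontal line of no effect in the double KO; blue points are α- and β-tubulin genes, of which most lie near the dashed line of equal effect.

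Choosing genes by their WT effect can inflate that effect. The set was therefore also chosen in other libraries, as the genes that changed at least 2-fold in the Control gRNA line of the second experiment of the series. For this set a call in WT was not required. Of those 770 genes, 261 (33.9%) met the other conditions for a lost gene, 7 were retained and 437 (56.8%) differed in the direction opposite to the WT effect. The double KO kept 7.59% of the summed effect over this set.

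WT vincristine replicate 4 stood apart from the other 3 WT vincristine libraries as a whole, and not only for several of the genes below. Between pairs of libraries, the chi-square of the counts per degree of freedom was 27.8 to 40.8 for the pairs with replicate 4. For the other pairs of that group it was 3.61 to 6.77. Replicate 4 also had the highest mitochondrial share of the 16 libraries (10.3%). Without this library the difference was called for 4782 genes and 492 genes were lost. The lines also differed before treatment, with 8334 genes (45.7%) called between untreated double KO and untreated WT, 4311 higher (23.6%) and 4023 lower (22.1%). Of the 275 lost genes that rose in WT, the untreated double KO differed from untreated WT in the direction of vincristine for 90 and in the other direction for 108. Of the 135 lost genes that fell in WT, it differed in the direction of vincristine for 78 and in the other direction for 33. For scale, the 4 libraries of each of the groups compared did not overlap for 25% of all genes between WT vincristine and WT untreated, for 9.94% between double KO vincristine and double KO untreated, for 44.8% between the vincristine groups and for 47.2% between the untreated groups.

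The AP-1 and ATF transcription factors sit directly below JNK. Of 15 tested, 12 rose and 1 fell in WT, none was called in the double KO, 7 were called for a lower response in the double KO and 6 were lost. The list's median effect was 0.71 in WT and 0.04 in the double KO, beside medians close to 0 in both lines over all genes tested, and it kept 6.14% ± 2.08 of the WT effect. JUN (chromosome 1, 58780788 to 58784327), the AP-1 subunit that JNK phosphorylates, was at 140, 151, 138 and 131 CPM in untreated WT libraries and 629, 570, 538 and 289 with vincristine. In the double KO it was at 38.4, 41.9, 36.5 and 41.5 CPM untreated and 44.4, 46.6, 46.1 and 47 with vincristine. All 4 treated double KO libraries lay above the untreated ones, but below every WT library, and the lowest treated WT library was replicate 4. The effect was 1.85 in WT and 0.22 in the double KO (95% interval -0.06 to 0.50), a difference of -1.64 ± 0.20 (SE, adjusted p = 3.49e-07).

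ATF3, a stress-induced factor known as a marker of injured neurons, showed a larger loss. It was at 15.1, 14.9, 13.9 and 12.5 CPM in untreated WT and 218, 223, 213 and 234 with vincristine. Its double KO libraries were at 1.87, 1.44, 1.26 and 1.96 CPM untreated and 2.54, 1.96, 1.73 and 2.25 with vincristine. WT treated and untreated libraries were far apart while the double KO groups overlapped, and with vincristine the double KO mean was 0.955% of the WT mean. The difference was -3.60 ± 0.27 (adjusted p = 1.96e-12). The other lost members were FOS (-2.69), CREB5 (-2.60), JDP2 (-2.74) and FOSL2 (-1.82), all AP-1 or CREB family factors, and FOSL2 was already higher in untreated double KO (1.64). JUND was called for a lower response (-0.76, adjusted p = 0.0205) but not lost, and that call did not hold without WT vincristine replicate 1 or 2, or with no filter on low counts. ATF2 itself did not pass the test in WT (-0.05) or for the difference (0.17, adjusted p = 0.49). MAFF, a small Maf factor, rose in WT (0.71) and had an effect of 0.55 in the double KO (adjusted p = 0.784), and its difference of -0.15 was not called. JUNB, CREB1, MAFG and MAFK rose in WT (0.40, 0.20, 0.41 and 0.56), ATF7 fell (-0.26) and CREM was not called (-0.02). None of these was called for the difference.

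Promoter sequence was read from RefSeq (GRCh38.p14) for the 250 bases before each annotated start, found for 11910 of the genes tested. An AP-1-type element (TGACATCA, as in the JUN promoter, either strand) was present in 2.09% of all these genes, in 7.37% of the lost genes that rose (14 of 190) and in 2.06% of the lost genes that fell. The TRE (TGACTCA, either strand) was present in 3.91% of all genes, 10.5% of lost genes that rose (20 of 190) and 4.12% of those that fell. The CRE (TGACGTCA, either strand) was present in 3.46%, 5.79% and 1.03%. Genes have several annotated starts, 1.46 on average over all genes and 1.73 over the lost genes that rose, which gives the latter more sequence to match. Genes that rose in WT without being lost were not read as a set. Whether the shares go with the loss or with the rise in WT was therefore not tested. Of the lost AP-1, ATF and BH3-only genes, 4 hold such a match. They are shown with 30 bases around it, 5′ to 3′ on the strand of the gene, with the match in capitals. The stretches of JUN and CREB5 lie inside the gene span of the files' own annotation.
ATF3 (chr1:212565273-212565302, + strand): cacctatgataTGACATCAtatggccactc
JUN (chr1:58784096-58784125, - strand): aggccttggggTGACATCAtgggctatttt
CREB5 (chr7:28686078-28686107, + strand): tgggaaggataTGACTCActcaagctagtt
BBC3 (chr19:47232762-47232791, - strand): gcactggaaggTGAGTCActctggtgaggc
ATF3 and JUN hold the same 8 bases, 123 and 67 bases before their RefSeq starts, and BBC3 holds the TRE on the other strand. A match describes the letters in these windows and does not show binding.

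The BH3-only genes encode proteins that trigger mitochondrial apoptosis by binding BCL2 family proteins. Of 8 tested, 6 rose and 1 fell in WT, none was called in the double KO, and 5 were lost. HRK, a BH3-only gene expressed in neurons, was at 44.2, 44.5, 38.4 and 46.6 CPM in untreated WT and 395, 337, 377 and 256 with vincristine. Double KO libraries held 3.22, 3.93, 3.19 and 3.35 CPM untreated and 5.19, 3.41, 4.6 and 3.57 with vincristine. The double KO groups overlapped, and with vincristine all 4 libraries stayed below the untreated WT libraries. The difference was -2.71 ± 0.24 (adjusted p = 9.41e-11).

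BBC3, which encodes PUMA, rose by 2.58 in WT and had an effect of -0.09 in the double KO. BCL2L11, which encodes BIM, rose by 2.44 in WT against 0.04. Its untreated level was 7.07 ± 0.83 CPM in WT and 17.8 ± 1.7 in the double KO, so the level in the double KO with vincristine (18.3 ± 0.57 CPM) was 47.6% of the WT level with vincristine (means ± SD). BMF (difference -1.41) was lost too, and it was also higher in untreated double KO (1.82). BID fell in WT by 0.57 and that fall was lost. PMAIP1, which encodes NOXA, rose by 2.08 in WT, but its mean in the double KO was 0.0442 CPM untreated and 0.165 with vincristine, and no fold is given for it. BIK was near 0 counts in WT (mean 0.0466 CPM untreated and 0.314 with vincristine), so no fold is given although it was called there (adjusted p = 0.0235). In the double KO its mean was 2.07 CPM untreated and 2.98 with vincristine, and its difference was not called (adjusted p = 0.123). BAD was not called in WT (-0.20) or for the difference. Of the 7 BCL2 guardians and effectors tested, MCL1 was called higher for the difference (0.27) and BCL2 lower (-0.38). The BCL2 call was lost under 13 of 23 alternatives, and the MCL1 call only when no filter on low counts was used.

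The integrated stress response is the programme that ATF4 drives when eIF2α is phosphorylated. All 13 members tested rose in WT, all 13 were called for a lower response in the double KO, and 12 were lost. The median effect was 1.95 in WT and 0.00 in the double KO, and the list kept -0.389% ± 3.22 of the WT effect. DDIT3, which encodes the stress factor CHOP, was at 15.3, 13, 11.9 and 9.74 CPM in untreated WT and 94.6, 111, 93.6 and 141 with vincristine. The double KO had 6.86, 8.98, 7.3 and 8.57 CPM untreated and 9.94, 7.99, 7.46 and 8.07 with vincristine. WT vincristine replicate 4 was the highest library here, unlike for JUN and HRK. The difference was -3.08 ± 0.25 (adjusted p = 5.32e-11).

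CHAC1, which degrades glutathione, was at 4.21, 6.43, 5.13 and 5.27 CPM in untreated WT and 37.5, 40.6, 37.9 and 39.4 with vincristine. Its double KO libraries were at 2.08, 2.09, 2.01 and 2.05 CPM untreated and 1.55, 2.03, 1.65 and 1.5 with vincristine, so no library rose above the untreated range. STC2, a secreted glycoprotein, had a difference of -4.03 ± 0.44 and CEBPB, a partner of ATF4, one of -3.25 ± 0.33. ATF4 itself rose by 1.09 in WT and had an effect of 0.00 in the double KO. INHBE, a secreted TGFβ family subunit outside the list, was at 26.2 ± 2.6 CPM in WT with vincristine and at 1.03 ± 0.28 CPM in the double KO with vincristine. Of the 13 genes, CTH was called for the difference but not lost.

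Genes for amino acid supply include many known ATF4 targets. Of 14 genes of serine, asparagine and one-carbon synthesis, 9 rose and 3 fell in WT, and 8 were lost. ASNS, asparagine synthetase, was at 4.78, 5.78, 5.55 and 6.36 CPM in untreated WT and 29.2, 23.9, 24.6 and 29 with vincristine. Its level in the double KO was 3.85, 5.29, 3.44 and 5.03 CPM untreated and 5.3, 5.3, 6.77 and 3.94 with vincristine, and those groups overlapped. PHGDH, the first enzyme of serine synthesis, had nearly the same untreated level in both lines (27.1 ± 1.8 CPM in WT, 28.1 ± 1.1 in the double KO), and with vincristine was at 141 ± 5 CPM in WT and 29 ± 2.4 in the double KO. Its untreated difference was 0.05 (adjusted p = 0.653), and the difference in effect was -2.34 ± 0.12 (adjusted p = 1.97e-16).

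Of 13 amino acid transporters, 8 rose and 1 fell in WT, and 6 were lost. SLC7A11, the cystine-glutamate exchanger, was at 5.83, 3.63, 2.25 and 3.28 CPM in untreated WT and 126, 107, 120 and 154 with vincristine. It stayed between 1.04 and 1.77 CPM in all 8 double KO libraries, and the difference of -4.89 ± 0.42 (adjusted p = 8.67e-11) was among the lowest in the data. SLC3A2, its heavy chain partner, differed by -1.42 and SLC7A5, a leucine transporter, by -1.48. SLC38A2, a neutral amino acid transporter, was not called in WT (0.23). Of 20 cytosolic aminoacyl-tRNA synthetases, which charge tRNAs with amino acids, 12 rose and 2 fell in WT, 8 were lost, and the list kept 3.15% ± 4.83. CARS1 rose from 79.4 ± 3.5 to 224 ± 9.6 CPM in WT and was at 69.3 ± 2.5 and 70.5 ± 2 CPM in the double KO.

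An amino acid response element core (TGATGCAA, either strand) was found in the 250 bases before the start in 0.621% of all genes, in 3.16% of lost genes that rose (6 of 190) and in 0 of the 97 lost genes that fell. Here too, genes that rose in WT without being lost were not read as a set. Within these lists, 5 lost genes hold it, shown as above. The stretches of CHAC1, CEBPG, MTHFD1L and SLC1A5 lie inside the gene span of the files' annotation.
CHAC1 (chr15:40953251-40953280, + strand): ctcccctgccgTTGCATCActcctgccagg
CEBPG (chr19:33374060-33374089, + strand): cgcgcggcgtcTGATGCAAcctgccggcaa
MTHFD1L (chr6:150866346-150866375, + strand): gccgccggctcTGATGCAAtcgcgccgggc
SLC1A5 (chr19:46784893-46784922, - strand): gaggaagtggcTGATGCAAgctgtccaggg
AARS1 (chr16:70289675-70289704, - strand): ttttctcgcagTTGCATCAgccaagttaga
The core lies on the gene's strand in CEBPG, a partner of ATF4, in MTHFD1L, a mitochondrial one-carbon enzyme, and in SLC1A5, a glutamine transporter. It lies on the other strand in CHAC1 and in AARS1, the alanyl-tRNA synthetase.

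**Figure D2:**
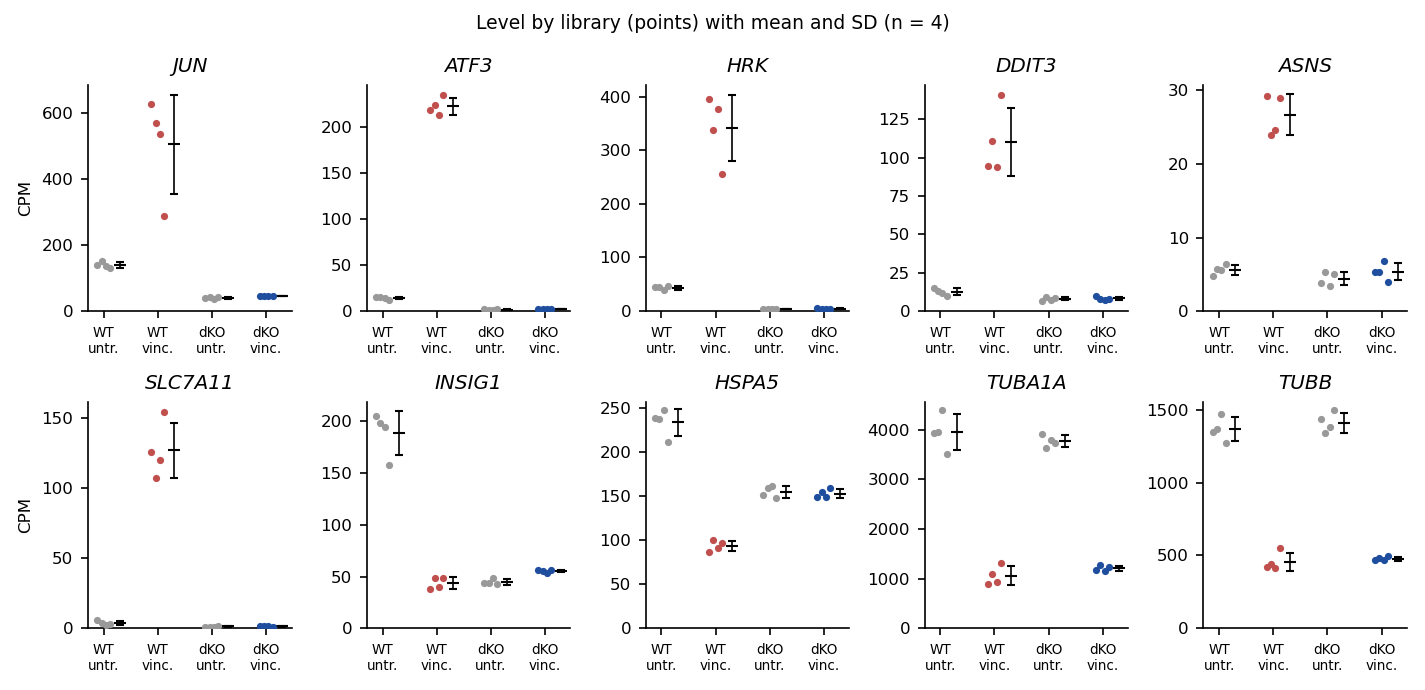
CPM in each library for 10 genes (points), with the mean and SD of 4 libraries beside them, in WT and double KO (dKO), untreated and with vincristine. For JUN, ATF3, HRK, DDIT3, ASNS and SLC7A11 only the WT vincristine group is high; INSIG1 and HSPA5 are lower with vincristine in WT but not in the double KO, while TUBA1A and TUBB are lower with vincristine in both lines.

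Of 12 early response genes tested, 9 rose and 1 fell in WT and 7 were lost. EGR1, a zinc finger factor induced by MAP kinase signalling, was at 19.3, 17.6, 17.2 and 20.1 CPM in untreated WT and 371, 309, 325 and 191 with vincristine. It was between 3.69 and 6.55 CPM in all 8 double KO libraries, with overlap of treated and untreated. ARC (-2.16), IER2 (-2.06), NR4A1 (-1.90) and BTG2 (-1.38) were lost as well. Of 9 MAP kinase phosphatases, which switch off JNK, p38 and ERK, 6 rose and 2 fell in WT, and 7 were called for a difference, but only DUSP1 and DUSP7 were lost. DUSP16, a JNK phosphatase, rose from 41.3 ± 2.1 to 219 ± 7.5 CPM in WT. In the double KO it was at 1.27 ± 0.19 CPM untreated and 1.78 ± 0.27 with vincristine, an effect of 0.52, and it was called for the difference (-1.89) but not below 0.5 times the WT effect (adjusted p = 0.0924).

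The lowest differences of all, among genes with a mean log2 CPM of at least 1 and above 3 counts in each group, were ARID5A (-4.94), SLC7A11, INHBE (-4.15), ABCB1 (-4.07), STC2, UNC5B (-4.03), EGR1 (-3.96), C11orf96 (-3.73), ADM2 (-3.67) and ATF3. ARID5A, an RNA-binding protein, was at 80.3, 78.1, 68.7 and 41.5 CPM in WT with vincristine and between 0.416 and 0.838 CPM in all double KO libraries. UNC5B, a netrin receptor, was at 6.12, 4.85, 4.92 and 5.17 CPM in untreated WT and 92.4, 74.2, 69.2 and 41.9 with vincristine. In untreated double KO it was at 8.01, 7.22, 7.05 and 8.85 CPM, above every untreated WT library (difference 0.56, adjusted p = 0.0734), and it was at 8.06, 5.74, 6.77 and 4.79 CPM with vincristine.

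ABCB1, the drug exporter P-glycoprotein, for which vincristine is a known substrate, stood apart by its untreated level. It was at 0.669, 0.652, 0.913 and 1.29 CPM in untreated WT and 16.5, 12.1, 17.7 and 16.6 with vincristine. The double KO libraries were at 9.77, 6.74, 8.14 and 8.85 CPM untreated and 10.2, 8.28, 8.33 and 8.54 with vincristine. The untreated double KO libraries therefore lay between the WT groups, with an untreated difference of 3.23 (adjusted p = 3.8e-14). The amount of vincristine inside the cells was not measured in these files. TNFRSF12A, the TWEAK receptor, was at 13.8, 15.9, 14.7 and 11.8 CPM in WT with vincristine and had at most 3 counts in every double KO library. No fold is given for it there.

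Of the 306 genes that fell at least 2-fold in WT, 135 (44.1%) were lost and 7 were retained. Of 23 genes of cholesterol synthesis and uptake, 21 fell in WT and none rose, all 21 were called for the difference, and 19 were lost. The median effect was -0.92 in WT and 0.19 in the double KO. The list kept -17% ± 3.76 of the WT effect, a sum with the opposite sign. All 23 were lower in untreated double KO than in untreated WT, each by the test, with a median of -1.40. For 19 of the 23 the untreated double KO mean lay below the mean of WT with vincristine. INSIG1, the sterol sensor that holds SREBP in the endoplasmic reticulum, was at 205, 198, 194 and 158 CPM in untreated WT and 37.9, 48.4, 39.6 and 48.7 with vincristine. Double KO libraries were at 44, 43.6, 48.4 and 42.7 CPM untreated and 55.9, 55.2, 53.4 and 56.1 with vincristine. All untreated double KO libraries thus lay within the range of the WT vincristine libraries, and the treated ones lay above it. The part of these low untreated levels in the difference was not tested.

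Endoplasmic reticulum chaperones and unfolded protein response genes split in WT, where 15 of 23 fell and 7 rose, and 15 were lost. HSPA5, the chaperone BiP, was at 239, 238, 248 and 212 CPM in untreated WT and 87.3, 100, 91.2 and 96.5 with vincristine. For the double KO the values were 151, 160, 162 and 148 CPM untreated and 149, 155, 149 and 159 with vincristine. Its double KO groups overlapped and lay between the WT groups, and the difference was 1.30 ± 0.08 (adjusted p = 1.52e-14). SDF2L1, a BiP cofactor, had the highest difference under the limits on level used for the lowest ones (2.97 ± 0.43). It was at 4.97, 3.91, 4.42 and 2.98 CPM in untreated WT and 0.304, 0.27, 0.869 and 0.755 with vincristine. The latter are only 3, 3, 10 and 7 counts, so the size of this difference rests on few reads. In the double KO its mean was 1.88 CPM untreated and 2.03 with vincristine. The other highest differences under the same limits on level were those of LIPG (2.64), OPRK1 (2.56), TICRR (2.53), INSIG1, VWC2L (2.37), PCDH8 (2.34), SH2D5 (2.26), TLE2 (2.25) and LEF1 (2.24). MANF, an ER-resident neurotrophic factor, fell by 1.58 in WT against an effect of 0.10 in the double KO. The sensors and regulators moved upward in WT: EIF2AK3, the eIF2α kinase PERK, rose from 76.1 ± 2 to 280 ± 11 CPM and XBP1 from 41.6 ± 5.8 to 138 ± 10 CPM. In the double KO with vincristine they were at 32.5 ± 1.2 and 19.1 ± 0.25 CPM, both below untreated WT. Of the 23 genes, 14 were lower in untreated double KO.

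Other lists held lost genes too. For scale, 15.7% of all genes tested rose in WT, 14.5% fell and 6.89% were lost. Of 15 heat shock proteins 8 fell in WT and 3 were lost, among them HSPH1 (difference 0.62) and DNAJB1 (0.64). Of 16 NRF2 targets 9 fell and 3 were lost, TXNRD1 (0.62), TALDO1 (0.56) and PGD (0.39). Of 17 p53 targets 5 rose and 2 fell, and 4 were lost, among them GADD45A (-1.64) and TNFRSF10B (-1.70). CDKN1A, the cell cycle inhibitor p21, rose from 2.48 ± 0.58 to 23.3 ± 2.7 CPM in WT and was at 0.652 ± 0.41 CPM in the double KO with vincristine. It was called for the difference (-2.90) but not lost. Of 39 axon guidance genes 7 rose and 14 fell, and 8 were lost. EPHA5 (0.93), SEMA3D (1.18) and EFNA3 (0.88) were among those whose fall was lost. Of 27 voltage-gated channels 4 rose and 5 fell in WT, and 3 were lost, too few genes to set their share against the 6.89% of all genes. The 13 respiratory chain genes encoded in mitochondria were not called in either line or for the difference. Of 37 nuclear-encoded ones 13 fell and none rose in WT, and 2 were lost. The difference was called higher in the double KO for 8 of the 37 and lower for none, beside 9.21% and 10.2% of all genes.

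**Figure D3:**
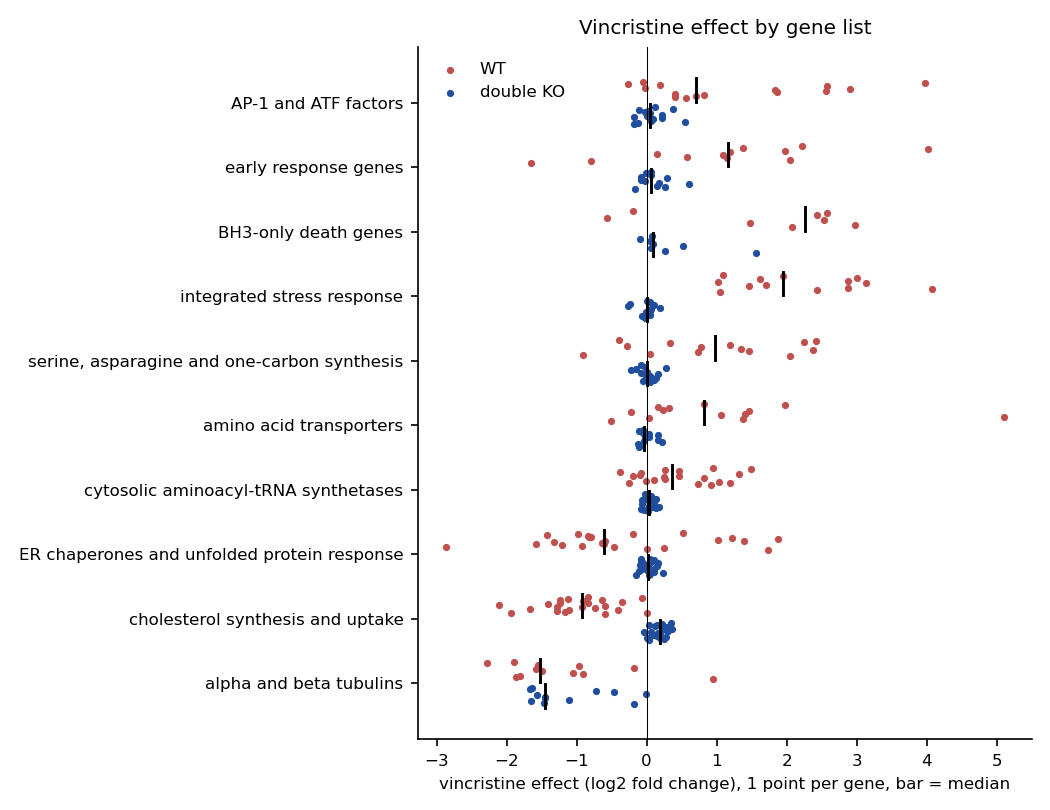
Vincristine effect (x axis, log2 fold change) of every tested member of 10 gene lists in WT (red) and the double KO (blue), with the list medians as bars. The double KO medians of the first 9 lists lie between -0.04 and 0.185, and in the tubulin list both lines reach about the same values (medians -1.52 in WT and -1.45 in the double KO).

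The fall of tubulin messages was kept. Of 12 α- and β-tubulin genes tested, 10 fell and 1 rose in WT, 8 fell in the double KO, 8 were retained and none was lost. The median effect was -1.52 in WT and -1.45 in the double KO, and the list kept 79.5% ± 6.47. TUBB (chromosome 6, 30720201 to 30725426) was at 1350, 1370, 1470 and 1270 CPM in untreated WT and 418, 440, 417 and 548 with vincristine. The double KO values were 1440, 1340, 1380 and 1500 CPM untreated and 467, 482, 466 and 498 with vincristine. Treated libraries lay below untreated ones in both lines, the treated groups of the lines overlapped, and so did the untreated ones. The effect was -1.58 in WT and -1.56 in the double KO, a difference of 0.02 ± 0.11 (adjusted p = 0.928), and the double KO effect was called above 0.5 times the WT effect (adjusted p = 8.17e-08).

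TUBA1A, the main α-tubulin of young neurons, fell by 1.90 in WT and by 1.64 in the double KO, where its interval was -1.84 to -1.45. TUBB2A fell by 1.46 in the double KO, a difference from WT of 0.04 (adjusted p = 0.805). TUBB2B, at 707, 715, 731 and 659 CPM in untreated WT and 373, 343, 330 and 304 with vincristine, went from 573, 568, 555 and 573 to 195, 216, 202 and 218 CPM in the double KO. Its fall was larger there, by -0.39 ± 0.09 (adjusted p = 0.00141). TUBA1B (0.62, adjusted p = 0.00227) and TUBB4B (0.39, adjusted p = 0.0111) fell less in the double KO than in WT and were still retained. TUBA1C fell by 1.55 in WT, had an effect of -0.72 in the double KO (adjusted p = 0.117) and was neither lost nor retained. TUBA4A fell in WT (-0.96) and was not called in the double KO (-0.47), and TUBA8 was not called in either line. TUBB6, which rose in WT (0.95) and had an effect of -0.18 in the double KO, was the exception in direction. Several tubulin genes have near-identical copies, among which the counting could have divided reads.

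The 12 genes called in the double KO were nearly all tubulins. They comprised TUBA1A, TUBA1B, TUBB, TUBB2A, TUBB2B, TUBB3, TUBB4A, TUBB4B and the γ-tubulin TUBG1, together with ENSG00000272540, which overlaps TUBB, HYDIN and STMN4. TUBG1, which nucleates microtubules, fell from 42.1 ± 2.6 to 13.3 ± 1.4 CPM in WT and from 35.2 ± 1.8 to 17 ± 1.1 in the double KO. Its fall was smaller in the double KO (difference 0.60, adjusted p = 0.000838). Reads of ENSG00000272540 and TUBB cannot be told apart unless the counting used strand, which is not given in the sources used here. STMN4, a microtubule-destabilising stathmin, was the only gene that rose, at 13.6, 12.2, 13 and 14.2 CPM untreated and 15.5, 19, 16.8 and 19 with vincristine in the double KO. In WT it was at 329, 333, 335 and 315 CPM untreated and 724, 746, 719 and 812 with vincristine. Its double KO level was thus far below WT in both conditions, with a rise of 0.41 (adjusted p = 0.0109) against 1.19.

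**Figure D4:**
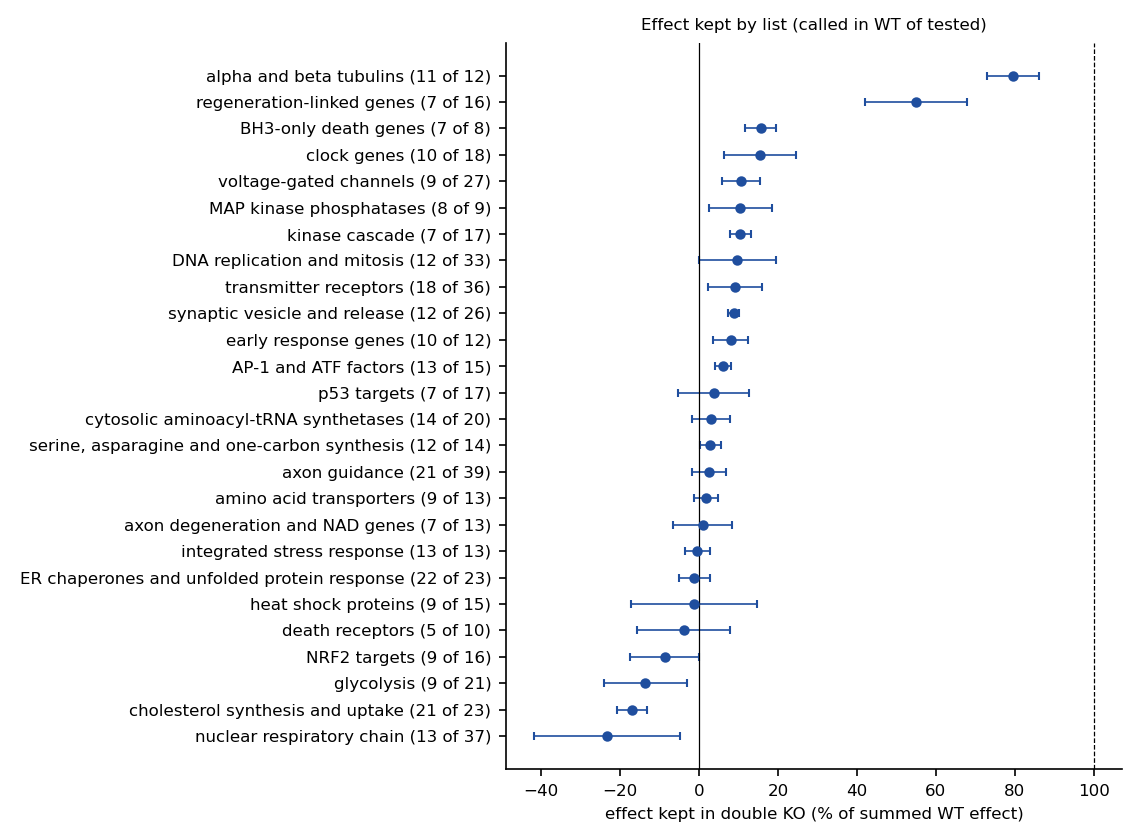
Share of the summed WT effect kept in the double KO (x axis, percent) for each pathway list (marker lists are not drawn) with at least 5 members called in WT, in brackets the number called in WT of those tested; bars are the SD over the 4 double KO vincristine libraries. Most lists lie near 0, α- and β-tubulins at 79.5% and regeneration-linked genes at 54.9%, a value to which CSRP1, near 0 counts in the double KO, contributes; the pan-neuronal marker list, which includes TUBB3, kept 47.4%.

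The regeneration-linked list kept 54.9% ± 12.9, but over 7 members called in WT of which CSRP1 was at 0.021 ± 0.042 CPM in untreated double KO and 0.249 ± 0.25 with vincristine. Its double KO effect was not called (adjusted p = 0.784). With members called in Control gRNA instead, the list kept 12.3%. SMAD1, a BMP signal transducer linked to axon regrowth, was lost, at 43 ± 3 CPM in untreated WT, 157 ± 16 with vincristine, and 48.4 ± 3.3 and 49.3 ± 1.4 in the double KO.

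The fit above shares 1 estimate of spread among 32 libraries. When only the 8 double KO libraries were fitted, an alternative chosen after seeing the data, 1028 of 16304 genes (6.31%) were called, 591 higher and 437 lower, with a median absolute effect of 0.203. Of these 1028, 344 were also called in WT, and 144 of those ran in the WT direction. Of the 982 genes that changed at least 2-fold in WT, 39 (3.97%) were called there, 23 in the WT direction. Those 23 include TUBA1A, TUBA1B, TUBA1C, TUBB, TUBB2A, TUBB2B, TUBB4A, TUBB4B, TUBG1 and ENSG00000272540. JUN was also one of the 23, with a rise of 0.23 that is 12.2% of its WT effect. The cholesterol genes IDI1 (0.29), INSIG1 (0.31) and SQLE (0.19) rose in this fit, opposite to their fall in WT. Small effects apart from tubulins were thus called in the double KO in this fit, which was chosen after the data were seen. A lost gene is one with less than 0.5 times the WT effect, not one with no effect.

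Single knockouts and the second experiment place the lost genes beside other lines. Each line has its own untreated libraries, and no test was made between lines here. Lost genes were chosen by their WT and double KO effects in these same libraries. Their medians in those lines, and the distance of the double KO from the single knockouts, therefore follow partly from that choice. The 275 lost genes that rose had a median effect of 1.46 in WT and -0.05 in the double KO, beside 0.385 in DLK KO and 0.465 in LZK KO. In DLK KO 120 of the 275 were called (background 6.53% of all genes) and in LZK KO 126 (background 3.88%). In the second experiment, which used CRISPR interference and a separate fit, 257 of them were tested. Their median effect was 1.27 with Control gRNA, 0.193 with ATF2 gRNA and 0.415 with JUN gRNA, and 236, 89 and 170 of them were called (background 35.3%, 6.1% and 15.9%). The 135 lost genes that fell had medians of -1.27 in WT and 0.0534 in the double KO, beside -0.0744 in DLK KO and -0.252 in LZK KO.

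The integrated stress response had a median effect of 0.516 in DLK KO and 0.572 in LZK KO. Cholesterol genes had medians of 0.0783 and -0.197 in those lines. JUN rose by 2.04 in DLK KO (adjusted p = 1.7e-11) and by 1.27 in LZK KO (adjusted p = 2.1e-07), against 1.85 in WT, and SLC7A11 by 1.64 and 3.32, against 5.11. The levels of JUN were lower in both single knockouts. Its mean was 55.3 CPM untreated and 227 with vincristine in DLK KO, 116 and 280 in LZK KO, and 140 and 507 in WT. α- and β-tubulins had medians of -1.38 in DLK KO, -0.926 in LZK KO, -1.35 with Control gRNA, -1.46 with ATF2 gRNA and -1.37 with JUN gRNA.

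**Figure D5:**
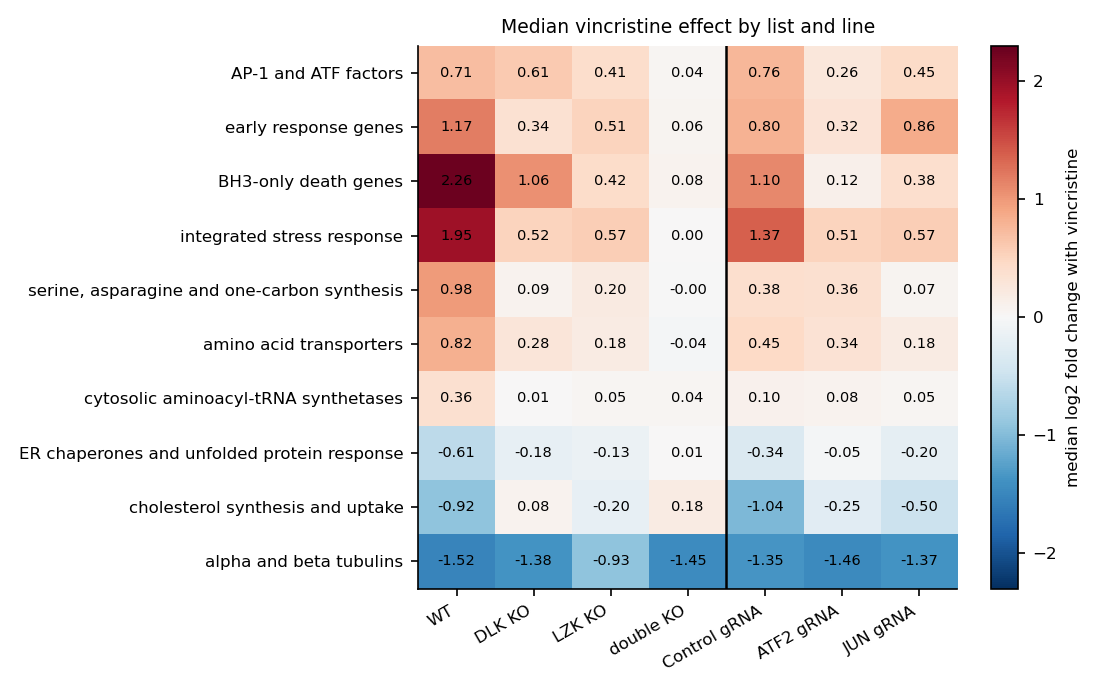
Median vincristine effect (log2 fold change, colour and number) of 10 gene lists in 7 lines, with the 4 lines of the first experiment left of the black line and the 3 of the second, fitted separately, right of it. In the double KO column every list but the tubulins lies between -0.04 and 0.185.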

How the data were processed

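RNA of 61 libraries from 2 experiments was measured, and the comparison rests on 16 of them. The authors deposited raw counts per gene, and per the submitters' processing notes reads were trimmed with cutadapt 3.4, aligned with STAR to GRCh38 and counted with featureCounts (Subread 2.0.1). Per the labels the kit was stranded, and the strand setting of the counting is not given in the sources used here. GENCODE 29 held 56992 of the 58440 gene identifiers (version and start alike), and 57799 had a symbol. Samples were assigned to count columns by their names.

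Counts of the 32 libraries of the first experiment were filtered with filterByExpr, scaled with TMM factors and fitted in 1 model with the quasi-likelihood test of edgeR 4.0.16 (R 4.3.3), 1 mean per group, all tests 2-sided. The 29 libraries of the second experiment were fitted on their own. Contrasts set the double KO effect against 1, 0.5 and 0.25 times the WT effect. Standard errors are the log2 fold change over the square root of F, and 95% intervals are 1.96 standard errors. CPM use TMM factors, and marker sums too. The effect kept is the sum of signed double KO effects over that of WT, over members called in WT. Alternatives were DESeq2 1.42.0, limma 3.58.1 voom with quality weights, RLE factors, other filters, a replicate block, fewer libraries and leaving out each of the 16. In simulated data (17070 genes passed the filter), 197 of 200 genes changed 4-fold in WT and not in the double KO were called lost, 57 of 200 changed 2-fold, and 1 of 200 changed 4-fold and 2-fold. Of 17635 genes drawn without a change, counted before that filter, 12 were called lost. The changed genes were drawn only from genes above a count limit, and the spread was set by a formula. Recovery of genes with few counts was therefore not tested.

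The comparison, the members and the gene lists were chosen with earlier results of these data known, and lists carry no test of their own. Genes were named from MAP3K12 and MAP3K13, all tested members of the AP-1, BH3-only and tubulin lists, and the 10 lowest and 10 highest differences. Up to 4 called and 2 other members of each further list and the genes called in the double KO were added. So were the 10 genes with the highest mean level among those changed at least 2-fold in WT without a called difference. ATF4, CTH, CEBPG, MTHFD1L, SQLE and POU4F1 fall outside this rule and were chosen after their values were seen. The number and spread of the libraries limit most values. Data were handled with pandas 2.3.3 and the R package data.table (version 1.17.8), and plots drawn with matplotlib 3.10.9 in Python 3.11.15. Some results are not reported here.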

Additional observations from a re-analysis of the deposited data

Results flagged for a closer look

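The vincristine effect differed between the double KO and WT for 3543 genes by the test of the difference itself (edgeR). Among the 24 genes given by library, 96 groups of 4 libraries were searched for a library far from the other 3, and 2 were found, where chance gives about 1 in 20. The search looked at 1 gene at a time. It did not flag WT vincristine replicate 4, which stood apart from its group as a whole, so it cannot show that no library is unusual. ABCB1 in double KO vincristine replicate 1 was at 10.2 CPM, while the others were at 8.28 to 8.54. MAP3K12 in WT untreated replicate 2 was at 94.3 CPM, while the others were at 89.7 to 90.2.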

How the results depend on the processing

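Of the 134 named genes called for the difference, 119 kept their call under every alternative run and none changed direction in any. The calls of BCL2, CASP9, CPLX1, GABRB1, HSPE1, JUND, MCL1, NDUFA8, NMNAT1, NPPC, PER1, SV2C, TUBA1C, TUBGCP3 and UQCRFS1 were lost in at least 1. The difference was called for 3285 to 3694 genes across tools, factors, filters and fits, and for 2976 to 4782 with 1 library left out. The vincristine effect in WT was called for 4671 to 6050 genes with 1 library left out and for 3529 when only its own 8 libraries were fitted, an alternative chosen after seeing the data. The double KO effect was called for 42 genes with limma voom and 1028 with only its own 8 libraries, and for 11 to 14 with 1 library left out. Lost genes among those changed 2-fold numbered 339 to 492 with 1 library left out. They numbered 261 when the genes were chosen in Control gRNA, where a call in WT was not required. Untreated differences numbered 7622 to 9038 with 1 library left out and 9765 with limma voom. Against 0.25 times the WT effect, 105 of the 982 genes were below it, 68 with only the 16 libraries, 222 with limma voom and 58 to 189 with 1 library left out (189 without WT vincristine replicate 4). The causes of these changes were not tested. Replicate numbers did not pair the samples: over 24 pairs of groups and numbers the correlation of deviations ran from -0.264 to 0.17, with 5 over 0.1. With the replicate block the difference was called for 3285 genes, the WT effect for 5259, the double KO effect for 13 and 392 genes were lost. Members near 0 counts in the double KO (PMAIP1, CSRP1, TNFRSF12A) could not be placed.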
